A study of Mus musculus with 16 samples.

Results

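In this set of libraries, 10 genes of the vessel wall that act in haemostasis and in leukocyte capture were followed: Vwf, Thbd, Selp, Sele, Icam1, Icam2, Vcam1, Pecam1, Plvap and Lrg1. They were chosen by symbol, and all 10 were found among the 21804 genes of the table. The RNA came from 8 C57BL/6 mice aged 4 months, and each mouse gave 1 cortex and 1 thalamus library. All mice carried at least 1 copy of the ret allele of Pdgfb, which lacks the retention motif that keeps the growth factor close to the endothelium; 4 mice were Pdgfb ret/wt and 4 were Pdgfb ret/ret. The 16 libraries therefore form 4 groups of 4, the cortex and the thalamus of each genotype. No mouse without the ret allele was analysed here. In ret/ret thalamus the pieces taken were calcifications, found by their autofluorescence under a stereomicroscope, whereas ret/wt thalamus was the same region without them. In the thalamus, genotype and dissection cannot be told apart. Pdgfb itself was not analysed here, so the genotype labels were not checked against it.

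Leukocytes leave the blood in steps. Selectins catch them, adhesion molecules of the immunoglobulin family arrest them, and junction proteins such as PECAM-1 let them pass, while von Willebrand factor waits beside P-selectin in endothelial granules called Weibel-Palade bodies and captures platelets. Healthy brain endothelium keeps most of this machinery low, and pericytes, which depend on PDGF-B, help to keep it so.

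The libraries held 13415438 to 29135220 counts, a ratio of 2.17, and levels are given as CPM, counts scaled to a common library size after TMM normalization. A floor of 3 counts corresponded to 0.103 to 0.224 CPM, for counting error only. Mitochondrial genes took 3.22% to 12.1% of counts. Ddx3y, a Y-linked gene, was at 52.5 to 71.8 CPM in both libraries of ret/wt mouse 3 and ret/ret mouse 2 and at most 0.214 CPM elsewhere, so each genotype held 1 such mouse. A pair of ret/wt mice stood apart in the member genes: mouse 4 in its thalamus library and mouse 3 in both libraries. Values without them stand beside the member differences that they move most. Choroid plexus markers summed to 1170 CPM in 1 ret/wt cortex library (replicate 4), against a group median of 56.8 CPM.

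Endothelial identity was visible in every library: the 17 endothelial core genes, among them Slc2a1 (the glucose transporter of the barrier), Cd34, Flt1 and Ptprb, summed to 376 to 950 CPM. Of these 17 genes, 13 had a higher fitted level in ret/ret cortex than in ret/wt cortex and 16 in thalamus, with median log2 fold changes of 0.60 and 0.37, and none passed an adjusted p of 0.05 in either. Over all genes tested the medians were 0.01 and -0.02. The 12 pericyte markers summed to 114 to 175 CPM in ret/wt cortex and 56.8 to 127 CPM in ret/ret cortex, and to 119 to 359 and 69.9 to 243 CPM in thalamus. Rgs5, a pericyte marker, fell in ret/ret cortex by 1.70 ± 0.20 on the log2 scale (SE, edgeR adjusted p = 0.041), a call that was lost without any 1 of the 8 cortex libraries (adjusted p = 0.08 to 0.235). The part of these shifts in the member genes' values was not tested, except where a member is set against the endothelial genes below.

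Across all tests no member passed an adjusted p of 0.05 with edgeR's quasi-likelihood test. Over all genes that test called 0 of 14767 (0.0%) between genotypes in thalamus, 3 of 14288 (0.021%) in cortex, 2 of 15505 (0.0129%) with each mouse's libraries summed, and 0 of 15286 (0.0%) for the interaction of genotype and region. At an unadjusted p under 0.05 it counted 581 genes in thalamus and 245 for the interaction, and DESeq2 called 37 and 4 genes there. Of the 7 members with enough counts to test in both regions, 0 had an unadjusted p under 0.05 in thalamus (3.93% of all genes did), and 2, Vwf and Icam2, had one in cortex (3.77%). The median log2 fold change of the 7 was 0.28 in cortex and -0.04 in thalamus. Levels and fitted differences below are therefore descriptions unless a test is named.

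Vwf had the largest genotype difference of the members in cortex. The gene (ENSMUSG00000001930, chr6:125546774-125686679, plus strand) encodes von Willebrand factor, the large multimer that tethers platelets and carries coagulation factor VIII. In ret/wt cortex it was at 30.8, 19.1, 8.57 and 25.5 CPM in mice 1 to 4. In ret/ret cortex it was at 96.7, 65.9, 68.9 and 80.1 CPM. Every ret/ret cortex library lay above every ret/wt one, a separation in that direction seen in 1.58% of the genes tested in cortex. The group means were 77.9 ± 14 CPM (SD, n = 4) and 21 ± 9.56 CPM (SD, n = 4). The fitted log2 fold change was 1.91 ± 0.35 (SE, edgeR adjusted p = 0.361), and Vwf had rank 12 among the genes tested in cortex. The two-sided exact permutation p of the mean log2 CPM was 0.0286, the smallest that 70 regroupings allow. DESeq2 alone called it (adjusted p = 1.7e-04, with 0.266% of genes called by that tool), and over all alternatives the log2 fold change lay between 1.63 and 2.15 and the adjusted p reached 0.999. In a bulk sample a lower count from fewer cells and a lower count from less RNA per cell cannot be told apart.

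In thalamus the Vwf groups overlapped through 1 library. The ret/wt values were 26.6, 18.4, 5.74 and 226 CPM, and the ret/ret values were 132, 37.4, 85.1 and 91.3 CPM. Replicate 4 of ret/wt held 8.51 times the next highest ret/wt library and more than any ret/ret library, while the other 3 ret/wt libraries lay below all 4 ret/ret ones. With all libraries the log2 fold change was 0.31 ± 0.92 (SE, edgeR adjusted p = 1.0), and without that library it was 2.41 ± 0.56 (SE, edgeR adjusted p = 0.443). Without ret/wt replicate 2 or 3 it was -0.01 or -0.07. The same mouse's cortex library had 25.5 CPM, inside its group's range. The library also held the most smooth muscle and fibroblast signal of its group, with mean log2 CPM of 2.77 and 4.26 against 1.20 to 1.51 and 1.62 to 3.82 in the others. Its mean log2 CPM was likewise the highest of its group for endothelial core genes (4.58 against 4.10 to 4.38) and arterial endothelial genes (2.83 against 1.67 to 2.24). The same held for venous (2.60 against 1.75 to 2.10) and capillary endothelial genes and for pericyte genes. Whether these cells have a part in its Vwf value was not tested.

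By mouse, the mean Vwf level of the paired libraries was 28.7, 18.7, 7.16 and 126 CPM in ret/wt and 114, 51.6, 77.0 and 85.7 CPM in ret/ret. The summed counts gave a log2 fold change of 0.98 ± 0.68 (SE, edgeR adjusted p = 0.999), 2.21 ± 0.45 (SE, edgeR adjusted p = 0.45) without ret/wt mouse 4, and 0.65 without ret/wt mouse 3. The interaction with region likewise went from -1.57 to 0.45 without the thalamus library of ret/wt mouse 4, and the thalamus minus cortex difference in ret/wt from 1.76 to -0.31. Between the mice with Y-linked reads, 1 per genotype, ret/ret had 7.69 times the ret/wt level in cortex and 6.51 times in thalamus. Among the remaining mice the ratio of means was 3.26 in cortex and 1.14 in thalamus, where the ret/wt mean includes the library at 226 CPM.

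**Figure D1:**
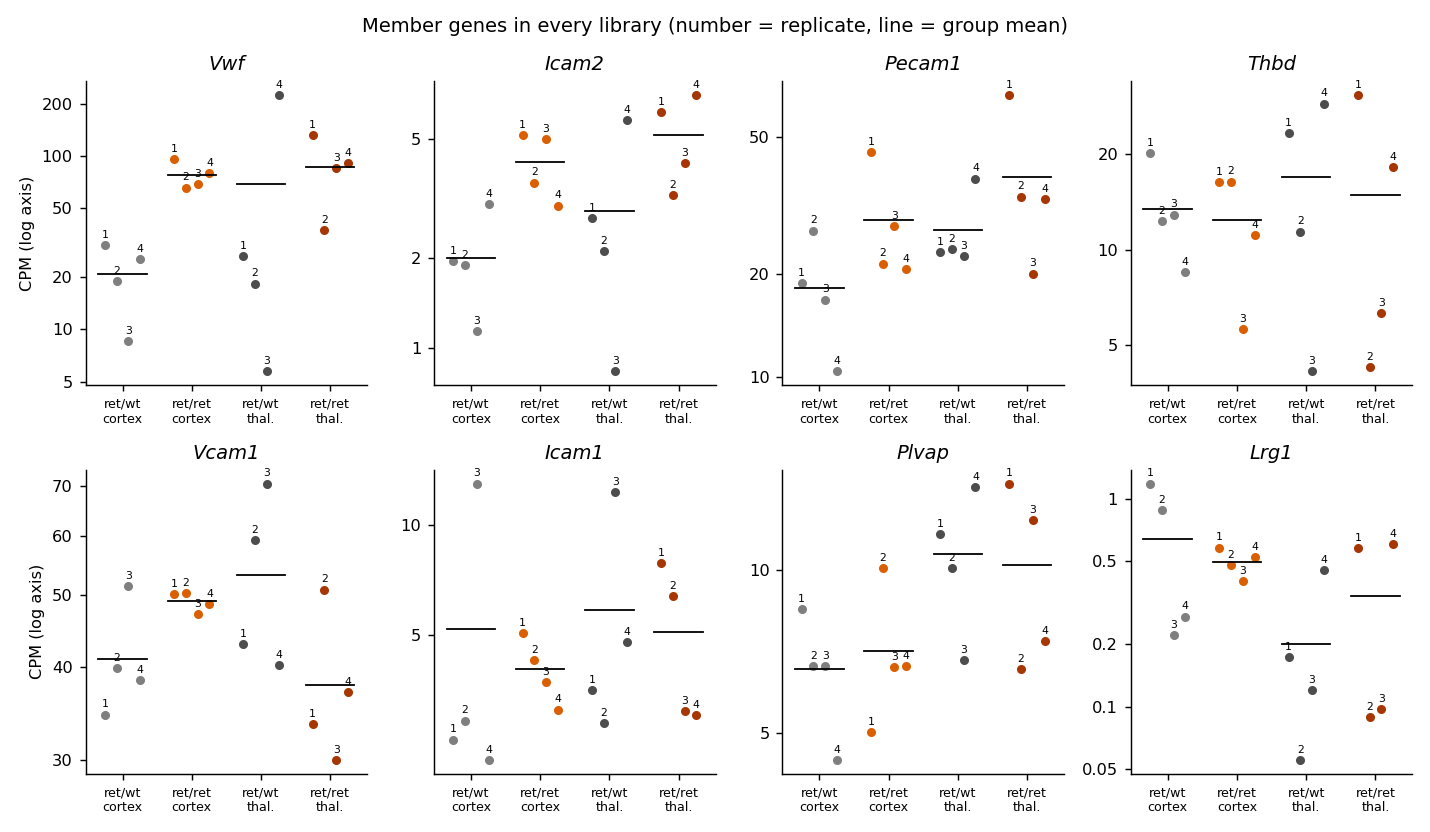
CPM of 8 member genes in each of the 16 libraries on log axes, with the replicate number above each point and a line at the group mean (4 libraries per group). Vwf lies between 65.9 and 96.7 CPM in ret/ret cortex, above all 4 ret/wt cortex libraries, and ret/wt thalamus replicate 4 stands at 226 CPM.

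Vwf reaches the blood from Weibel-Palade bodies, and a list of 12 cargo and release genes of these granules was read beside it. In cortex 9 of the 12 had a higher and 3 a lower fitted level in ret/ret, with a median log2 fold change of 0.20, and in thalamus 8 and 4, with a median of 0.28. Edn1, the precursor of the vasoconstrictor endothelin-1, was the only gene of this list to pass the test: it rose in ret/ret cortex by a log2 fold change of 3.02 ± 0.28 (SE, edgeR adjusted p = 0.0129). The adjusted p was 0.0963, 0.16 and 0.056 without ret/wt cortex replicate 1, 2 or 4, and 0.291 with the replicate block, with log2 fold changes of 2.82 to 3.19 when any 1 library was left out. Its cortex values were 2.20, 2.78, 3.91 and 2.71 CPM in ret/wt and 32.5, 18.4, 24.0 and 18.6 CPM in ret/ret. Edn1 also passed by mouse, with a log2 fold change of 2.67 ± 0.22 (SE, edgeR adjusted p = 0.00381). That call was lost without the mice with Y-linked reads and with the replicate block. In thalamus Edn1 was at 2.55 to 3.94 CPM in ret/wt and 9.07 to 21.4 CPM in ret/ret. The log2 fold change there was 2.31 ± 0.33 (SE, edgeR adjusted p = 0.216). Angpt2, the TIE2 ligand stored in the same granules and named here after its values were seen, was at 1.77 ± 0.70 CPM in ret/wt cortex and 9.34 ± 5.80 CPM in ret/ret cortex (SD, n = 4, edgeR adjusted p = 0.476). In the thalamus library with 226 CPM of Vwf, Edn1 and Angpt2 were at 3.94 and 2.46 CPM, against 2.55 to 2.89 CPM of Edn1 and 1.60 to 20.4 CPM of Angpt2 in the other ret/wt thalamus libraries. Among the abundant genes of the list, the exocytosis regulators Stxbp5 and Myrip and the tetraspanin Cd63 had log2 fold changes of -0.24, 0.27 and 0.12 in cortex, each with an edgeR adjusted p of 0.999.

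Thbd (ENSMUSG00000074743, chr2:148404466-148408188, minus strand, a gene of a single exon) encodes thrombomodulin, which turns thrombin from a clotting into an anticoagulant enzyme. It was at 20.2, 12.3, 12.9 and 8.47 CPM in ret/wt cortex and 16.3, 16.4, 5.62 and 11.1 CPM in ret/ret cortex. In thalamus it was at 23.3, 11.4, 4.13 and 28.9 CPM in ret/wt and 30.8, 4.25, 6.30 and 18.2 CPM in ret/ret. The groups overlapped in both regions, and the log2 fold changes were -0.10 ± 0.37 in cortex and -0.15 ± 0.69 in thalamus (SE, edgeR adjusted p = 0.999 and 1.0). In thalamus the highest library of a group held 7.0 times the lowest in ret/wt and 7.26 times in ret/ret. Thbd followed markers of meningeal and perivascular fibroblasts: after the region mean was subtracted, its log2 CPM had Pearson r = 0.93 and Spearman rho = 0.87 with the mean of 10 fibroblast genes over the 16 libraries. The value was 0.92 within ret/wt, 0.96 within ret/ret and 0.89 without the 2 libraries farthest from the median. The likeness was not particular to fibroblast genes. Pericyte genes had r = 0.59 over the 16 libraries, 0.81 within ret/wt and 0.97 within ret/ret, and smooth muscle genes 0.74, 0.60 and 0.84. These 16 libraries share 8 mice and no p is given. The fibroblast genes had median log2 fold changes of -0.01 in cortex and -0.15 in thalamus, and their mean log2 CPM was 3.32 ± 1.17 in ret/wt and 2.71 ± 1.55 in ret/ret thalamus (SD, n = 4).

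Among the other genes of coagulation and fibrinolysis 13 of 15 could be tested in cortex and 12 in thalamus, and 0 passed the adjusted threshold. In cortex 9 had a higher and 4 a lower fitted level in ret/ret (median log2 fold change 0.32), and in thalamus 7 and 5 (median 0.10). F3, the tissue factor that starts coagulation, was at 41.4 ± 6.54 and 51.6 ± 18.6 CPM in ret/wt and ret/ret cortex and at 72.6 ± 7.62 and 69.0 ± 3.42 CPM in thalamus (SD, n = 4). Plat, tissue plasminogen activator, was at 38.9 ± 4.30 and 28.9 ± 9.47 CPM in cortex. Klf2, the flow-responsive factor known to drive Thbd, was at 7.38 ± 2.19 and 9.19 ± 7.13 CPM in ret/wt and ret/ret cortex (SD, n = 4), and 0 of the 9 factors known to control member genes passed the adjusted threshold in either region. Platelet RNA was scarce: the 6 platelet genes found summed to 1.39 to 4.83 CPM over all libraries, and Ppbp, Gp6 and Treml1 never exceeded 3 counts.

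Selp and Sele, the endothelial selectins that make leukocytes roll, were at or near the detection floor in all groups. Selp (P-selectin, ENSMUSG00000026580, chr1:164115264-164150026, plus strand) had 0 counts in all 4 ret/wt cortex libraries, and 7, 1 and 2 counts in total in ret/ret cortex, ret/wt thalamus and ret/ret thalamus. Sele (E-selectin, ENSMUSG00000026582, chr1:164048234-164057677, plus strand) had 10, 8, 2 and 8 counts in total in ret/wt cortex, ret/ret cortex, ret/wt thalamus and ret/ret thalamus, with 8 counts as the most in any library. Sele counts of 6 or more came from ret/wt mouse 3 and ret/ret mouse 2 alone, the mice with Y-linked reads. Neither gene could be tested, and at this depth no genotype difference was detectable. P-selectin shares its granule with von Willebrand factor, and in ret/wt cortex, where Selp had 0 counts, Vwf was at 8.57 to 30.8 CPM.

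Icam1 (ENSMUSG00000037405, chr9:21015985-21028817, plus strand) encodes the receptor that leukocyte integrins LFA-1 and Mac-1 bind when a rolling cell stops, and cytokines such as TNF and interferon-gamma induce it. In ret/wt cortex it was at 2.59, 2.92, 13 and 2.28 CPM, and in ret/ret cortex at 5.08, 4.27, 3.72 and 3.13 CPM. In ret/wt thalamus it was at 3.54, 2.88, 12.3 and 4.78 CPM, and in ret/ret thalamus at 7.89, 6.39, 3.10 and 3.02 CPM. Mouse 3 of ret/wt was the highest of all mice in both regions, 5.01 times the mean of the other ret/wt cortex libraries and 3.28 times in thalamus. The log2 fold changes were -0.35 ± 0.56 in cortex and -0.17 ± 0.52 in thalamus (SE, edgeR adjusted p = 0.999 and 1.0). Without that mouse's library they were 0.64 and 0.48. In thalamus the value was also 0.02 without ret/ret replicate 3 or 4. The other 3 ret/wt cortex libraries, at 2.28 to 2.92 CPM, lay below the 4 ret/ret ones at 3.13 to 5.08 CPM.

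The windows of 250 bases before the RefSeq starts of Icam1 and Sele (GRCm38.p6) are shown because, of the 4 members with a window in the RefSeq table (Icam1, Sele, Selp and Lrg1), these hold a match to a searched motif. Capitals mark the matches: TTCNNNGAA, the spacing that STAT factors read, in both, and TATAAA in Sele. The Icam1 window is chr9:21015690-21015939 and the Sele window chr1:164047984-164048233, both on the plus strand.
Icam1: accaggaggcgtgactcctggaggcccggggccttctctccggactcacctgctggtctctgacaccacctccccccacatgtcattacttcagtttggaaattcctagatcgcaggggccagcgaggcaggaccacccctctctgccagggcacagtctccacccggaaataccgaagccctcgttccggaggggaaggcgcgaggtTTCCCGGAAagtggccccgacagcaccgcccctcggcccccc
Sele: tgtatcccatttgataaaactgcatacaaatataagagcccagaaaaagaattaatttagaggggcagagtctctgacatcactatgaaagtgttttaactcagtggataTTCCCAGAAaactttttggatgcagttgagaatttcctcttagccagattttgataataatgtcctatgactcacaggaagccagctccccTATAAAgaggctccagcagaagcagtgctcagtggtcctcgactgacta
The STAT-spaced match lies at -42 to -34 in Icam1 and at -140 to -132 in Sele, counted back from the start, and the TATA match at -49 to -44 in Sele. Both strands were searched, over 32851 windows of this length: 7.02% held TTCNNNGAA, 12.4% TATAAA and 9.55% an NF-kappaB consensus. That consensus was searched only as the exact string GGRRNNYYCC (R is A or G, Y is C or T), which none of the 4 members matched. Sites that depart from this string by a base were not searched for, so their absence is not shown. TTCNNNGAA reads the same on both strands, the matches do not overlap one another, and a match is a string of letters, not a bound site.

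Of the 26 inflammatory inducers, their receptors and their signal carriers, 21 could be tested in each region and 0 passed the adjusted threshold. In cortex 13 had a higher and 8 a lower fitted level in ret/ret (median log2 fold change 0.09), and in thalamus 15 and 6 (median 0.23). Tnf was at a mean of at most 0.0554 CPM in every group, and Il6st, the shared receptor of interleukin-6 cytokines, was at 118 ± 17.1 and 157 ± 26.9 CPM in ret/wt and ret/ret cortex (SD, n = 4, edgeR adjusted p = 0.999). Stat3, a carrier of that signal, was at 55.8 ± 11.1 and 49.9 ± 10.4 CPM (SD, n = 4).

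Icam2 (ENSMUSG00000001029, chr11:106377656-106388075, minus strand) encodes a constitutive ligand of LFA-1 at endothelial junctions. Its cortex levels were 1.96, 1.90, 1.14 and 3.04 CPM in ret/wt and 5.16, 3.58, 5.0 and 3.0 CPM in ret/ret. The overlap came from ret/wt replicate 4, at 3.04 CPM, and ret/ret replicate 4, at 3.0 CPM. In thalamus it was at 2.72, 2.11, 0.837 and 5.81 CPM in ret/wt and 6.16, 3.26, 4.17 and 7.04 CPM in ret/ret, and ret/wt replicate 4 again lay among the ret/ret libraries. The log2 fold changes were 1.07 ± 0.38 (SE, edgeR adjusted p = 0.999) in cortex and 0.87 ± 0.54 (SE, edgeR adjusted p = 1.0) in thalamus. The thalamus value was 1.5 without ret/wt replicate 4 and 0.56 without ret/wt replicate 3. By mouse it was 0.98 ± 0.40 (SE, edgeR adjusted p = 0.935), and 1.4 without ret/wt mouse 4. By mouse, 2 members of 8 had an unadjusted p under 0.05, Icam2 and Pecam1, where 5.13% of all genes did.

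By Pearson correlation, Icam2 was the gene whose pattern was most like that of Vwf among 12766 genes. With the region mean subtracted, their log2 CPM had Pearson r = 0.93 and Spearman rho = 0.86 over the 16 libraries, r = 0.94 within ret/wt and 0.68 within ret/ret. Next for Vwf came Clec2d (r = 0.92), a C-type lectin, and Bdh2 (r = 0.90, with a Spearman rho of 0.94, above that of Icam2), and next for Icam2 came Clec2d (r = 0.87) and Acvrl1 (r = 0.86), the endothelial BMP9 receptor ALK1. In ret/wt thalamus replicate 4 Clec2d was at 17.2 CPM against 2.69 to 4.66 CPM in the other ret/wt thalamus libraries, and without that library its r with Vwf was 0.91. The mean of 9 arterial endothelial genes followed Vwf with r = 0.84 over all libraries and 0.97 within ret/wt, but 0.32 within ret/ret. Bmx, an arterial kinase named after its values were seen, was at 1.5 ± 0.393 CPM in ret/wt cortex and 4.10 ± 0.81 CPM in ret/ret cortex (SD, n = 4, edgeR adjusted p = 0.559). The mean of 6 venous genes followed Vwf with r = 0.60, and Vwf against the endothelial core mean had r = 0.69. Without the 2 libraries farthest from the median of Vwf, r was 0.70 for the arterial, 0.78 for the venous and 0.58 for the core genes. Likeness to Vwf was not particular to endothelial genes. Smooth muscle genes had r = 0.88 within ret/wt and 0.65 within ret/ret, and pericyte genes 0.78 and 0.85. The core genes had 0.58 and 0.53 there, and the venous genes 0.33 and 0.64. Over all libraries r was 0.48 for smooth muscle and -0.24 for pericyte genes. The libraries share mice, depth and scaling, so these values describe likeness within this set.

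**Figure D2:**
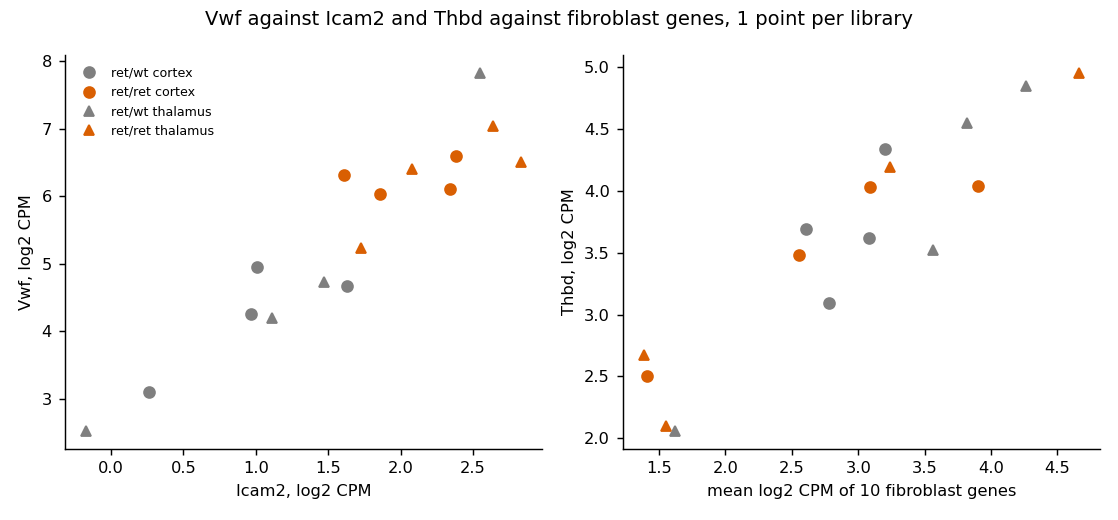
Left, log2 CPM of Vwf against log2 CPM of Icam2; right, log2 CPM of Thbd against the mean log2 CPM of 10 fibroblast genes, with 1 point per library, colour for genotype and shape for region. Vwf and Icam2 lie along a line (r = 0.93 after the region mean is subtracted) with most ret/ret libraries at its upper end, and Thbd and fibroblast genes lie along a line (r = 0.93) on which the genotypes are mixed.

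Vcam1 (ENSMUSG00000027962, chr3:116109949-116129688, minus strand) encodes the ligand of integrin alpha4 beta1 that arrests lymphocytes and monocytes. Its fitted genotype difference was above 0 in cortex and below 0 in thalamus, as was also the case for the much smaller difference of Plvap. In cortex it was at 34.5, 39.8, 51.4 and 38.4 CPM in ret/wt and at 50.1, 50.2, 47.1 and 48.6 CPM in ret/ret. In thalamus it was at 42.9, 59.2, 70.5 and 40.2 CPM in ret/wt and at 33.5, 50.8, 30 and 37.0 CPM in ret/ret. The ret/ret cortex libraries were the most even of any group, with a coefficient of variation of 3.0%, against 17.8% in ret/wt cortex. The log2 fold change was 0.28 ± 0.16 in cortex and -0.46 ± 0.24 in thalamus (SE, edgeR adjusted p = 0.999 and 1.0), with overlap in both. Without ret/wt replicate 3 the thalamus value was -0.29.

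Within mice, Vcam1 was higher in thalamus than in cortex in all 4 ret/wt mice, by 0.32, 0.57, 0.46 and 0.07 on the log2 scale. In ret/ret it differed by -0.58, 0.02, -0.65 and -0.39, so the genotypes did not overlap, a separation seen in 1.74% of genes. The two-sided exact permutation p was 0.0286, the smallest possible. The fitted interaction was -0.75 ± 0.29 on the log2 scale (SE, edgeR adjusted p = 1.0), and 1 member of 8 had an unadjusted p under 0.05 where 1.6% of genes did. It lay between -0.91 and -0.58 over the alternatives. In the fit with the mouse as a block the edgeR adjusted p was again 1.0. Because ret/ret thalamus was calcified tissue, the difference between regions in ret/ret and the dissection cannot be told apart.

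**Figure D3:**
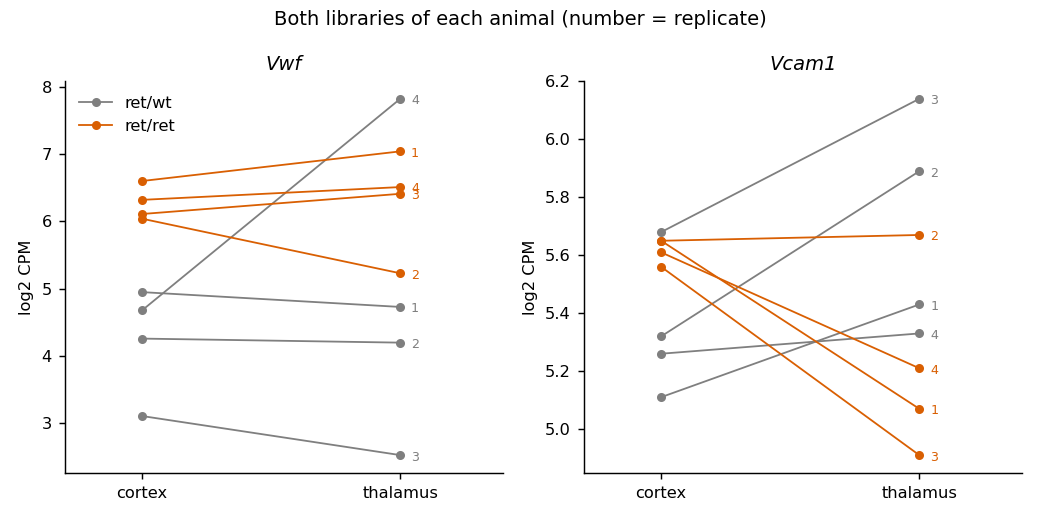
Log2 CPM of Vwf and Vcam1 in the cortex and thalamus library of each mouse, joined by a line and numbered by replicate. For Vcam1 all 4 ret/wt lines go up towards thalamus and 3 of the 4 ret/ret lines go down; for Vwf ret/wt mouse 4 stands out, 3.14 higher in thalamus than in cortex.

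The region-centred r of Vcam1 with Vwf was -0.54 over the 16 libraries, -0.87 within ret/wt and -0.78 within ret/ret, and -0.29 over all genotypes without the 2 libraries farthest from the median of Vcam1. With the mean of the endothelial core genes the r of Vcam1 was -0.21 over the 16 libraries, -0.55 within ret/wt and -0.04 within ret/ret. Which cells the Vcam1 counts came from was not tested. In ret/wt mouse 3 both Vcam1 and Icam1 were the highest of the ret/wt libraries in both regions, and Vwf and Icam2 the lowest. In the thalamus of that mouse Angpt2 was at 20.4 CPM, against 1.60 to 2.66 CPM in the other ret/wt thalamus libraries, while its cortex had 1.14 CPM. The genes most like Vcam1 were Rab12 (r = 0.88), Sptlc2 (r = 0.86) and Ube2d1 (r = 0.84), none of them a gene of the lists read here.

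Integrins, selectin ligands and other genes of leukocyte adhesion, not all of them particular to leukocytes, were read as a list of 11 genes found. Of these, 9 could be tested in each region and 0 passed the adjusted threshold. Glg1 and Itgb1, the most abundant, were at means of 283 and 75.4 CPM over all libraries, and the list was not used to count leukocytes. In thalamus 7 had a higher and 2 a lower fitted level in ret/ret (median log2 fold change 0.55), and in cortex 6 and 3 (median 0.16). Named after their values were seen, 3 genes, all of integrins, had an unadjusted p under 0.05 in thalamus, where 3.93% of all genes did. They were Itgal, a chain of LFA-1, Itgam, a chain of Mac-1, and Itgb2, the chain both share. Itgb2 was at 4.67 ± 2.56 CPM in ret/wt thalamus and 12.4 ± 6.97 CPM in ret/ret thalamus (SD, n = 4, edgeR adjusted p = 1.0). Itgal was at 0.439 ± 0.16 and 1.83 ± 1.53 CPM there. Itga4, the alpha4 chain of the Vcam1 receptor and also named after its values were seen, went the other way in cortex. It was at 28.0 ± 14.7 CPM in ret/wt cortex and 13.6 ± 5.96 CPM in ret/ret cortex (SD, n = 4, edgeR adjusted p = 0.999). It alone of the list had an unadjusted p under 0.05 in cortex, where 3.77% of all genes did. Its log2 fold change was -1.03 in cortex, 0.37 in thalamus and -0.81 by mouse. Microglia carry LFA-1 and Mac-1 too. All 10 microglial markers had a higher fitted level in ret/ret thalamus, with a median log2 fold change of 0.63. Of these markers 7 had an unadjusted p under 0.05, where 3.93% of all genes did, and 0 passed the adjusted threshold. Their summed levels there were 313 to 368 CPM in ret/wt and 462 to 637 CPM in ret/ret. The part of microglia in the integrin values was not tested. The 12 lymphocyte genes summed to at most 11.9 CPM and the 9 neutrophil and monocyte genes to at most 12.2 CPM in any library, with Ly6g at no more than 3 counts.

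Pecam1 (ENSMUSG00000020717, chr11:106654217-106750628, minus strand) encodes PECAM-1, an adhesion molecule of endothelial junctions through which leukocytes pass. It was at 18.8, 26.7, 16.8 and 10.4 CPM in ret/wt cortex and 45.2, 21.4, 27.5 and 20.6 CPM in ret/ret cortex. In thalamus it was at 23.1, 23.6, 22.5 and 37.8 CPM in ret/wt and 66.3, 33.5, 20 and 33.0 CPM in ret/ret. Mouse 1 of ret/ret was the highest in both regions, and the groups overlapped in both. By mouse the log2 fold change was 0.65 ± 0.27 (SE, edgeR adjusted p = 0.941), and 0.28 without ret/ret mouse 1. Pecam1 followed the 17 endothelial core genes with region-centred r = 0.93 over the 16 libraries (0.84 in ret/wt, 0.98 in ret/ret). Its most similar genes were Igfbp7 (r = 0.93), Abcb1a (r = 0.92), the P-glycoprotein of the barrier, and Lyz2 (r = 0.89). The 11 other genes of junctional adhesion and transmigration found gave 5 higher and 3 lower fitted levels in cortex and 3 and 5 in thalamus, with medians of 0.12 and -0.08 and 0 adjusted calls. Jam2, the third most abundant of them after Alcam and Cd99l2, was at 58.7 ± 5.42 and 77.9 ± 20.9 CPM in ret/wt and ret/ret cortex (SD, n = 4).

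Plvap (ENSMUSG00000034845, chr8:71497765-71511752, minus strand) encodes the diaphragm protein of fenestrae and caveolae, which brain capillaries lose as the barrier matures. It was at 8.48, 6.65, 6.64 and 4.45 CPM in ret/wt cortex and 5.01, 10.1, 6.61 and 6.64 CPM in ret/ret cortex. In thalamus it was at 11.7, 10.1, 6.82 and 14.3 CPM in ret/wt and 14.5, 6.57, 12.4 and 7.40 CPM in ret/ret. The genotypes overlapped in both regions, with log2 fold changes of 0.14 ± 0.30 and -0.04 ± 0.33 (SE, edgeR adjusted p = 0.999 and 1.0). Between regions in ret/wt it was 0.73 ± 0.31 higher in thalamus on the log2 scale (SE, edgeR adjusted p = 0.159); over all genes 12.6% passed the adjusted threshold in that comparison and 0 of 7 members did. In ret/ret the difference was 0.53 ± 0.33 (SE, edgeR adjusted p = 0.339), where 9.5% of all genes and 0 of 8 members passed. Plvap overlaps Gtpbp3 on the opposite strand. Its most similar genes were Nadsyn1 (r = 0.89), Lrrc75b (r = 0.86) and Slc26a6 (r = 0.83).

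Lrg1 (ENSMUSG00000037095, chr17:56119678-56122001, minus strand) encodes a secreted glycoprotein that modulates TGF-beta signalling in vessels and is induced in venules by inflammation. It had 1 to 15 counts per library. Its mean was 0.636 ± 0.468 and 0.496 ± 0.0753 CPM in ret/wt and ret/ret cortex and 0.200 ± 0.175 and 0.342 ± 0.287 CPM in thalamus (SD, n = 4), with overlap in both regions. Summed by mouse the log2 fold change was 0.22 ± 0.48 (SE, edgeR adjusted p = 0.999), a value that rests on few counts.

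**Figure D4:**
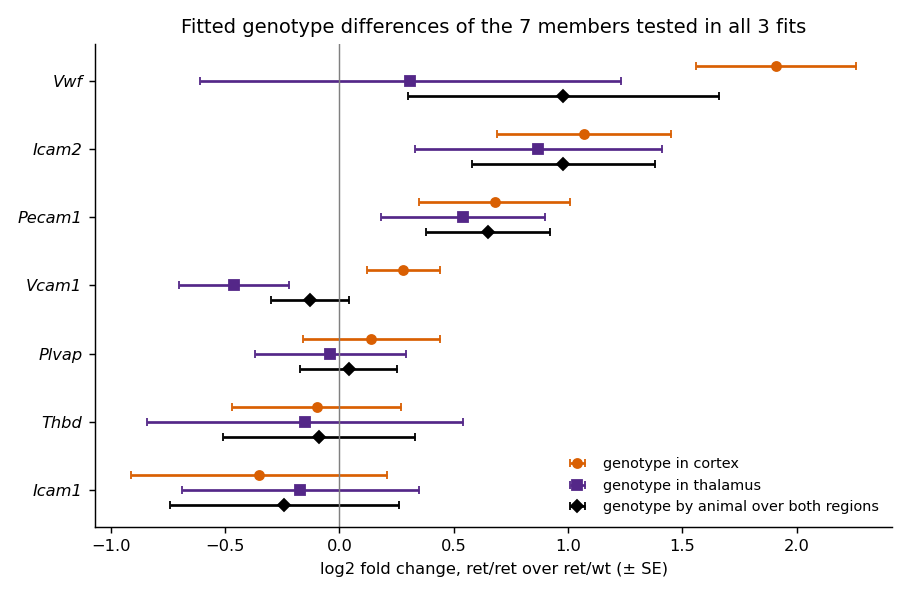
Fitted log2 fold change of ret/ret over ret/wt with its standard error for the 7 members tested in cortex (circles), in thalamus (squares) and by mouse over both regions (diamonds), 4 mice per genotype. Vwf in cortex is farthest from 0 at 1.91, its thalamus bar spans 0 at 0.31 ± 0.92, and Vcam1 lies on opposite sides of 0 in cortex (0.28) and thalamus (-0.46).

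Per kilobase of exon, which allows genes to be compared with one another, the order of mean levels in ret/wt cortex was Vcam1 (4.62 ± 0.821), Thbd (3.62 ± 1.32), Plvap (3.30 ± 0.828), Pecam1 (2.91 ± 1.08), Vwf (1.31 ± 0.595), Icam1 (1.19 ± 1.20), Icam2 (1.06 ± 0.41) and Lrg1 (0.452 ± 0.332 CPM per kilobase, SD, n = 4), followed by Sele at 0.0395 and Selp at 0.0. Neighbours in this order had overlapping ranges from Vcam1 down to Lrg1. In ret/ret cortex Vwf (4.85 ± 0.869) stood second after Vcam1 (5.52 ± 0.163), with Pecam1 (4.6 ± 1.83) next, all with overlapping ranges. In ret/ret thalamus Pecam1 (6.13 ± 3.17), Vwf (5.37 ± 2.40) and Plvap (5.14 ± 1.94) led, again with overlapping ranges. The lengths are unions of all annotated exons, so the levels of genes with long rare exons, Vwf among them, are understated.

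Because most of the endothelial core genes had higher fitted levels in ret/ret, each member was also set against the mean log2 CPM of the 17 core genes, per mouse and over both regions. Of the 8 members computed, 1 had genotypes that did not overlap, where 24.3% of 15279 genes did so on this measure, so the count is below the share over all genes. The gene is Plvap: it was at -1.21 ± 0.13 in ret/wt and -1.72 ± 0.35 in ret/ret (SD, n = 4), a difference of -0.51 with a two-sided exact permutation p of 0.0286. The difference was -0.38 with an exact p of 0.114 when capillary, venous and arterial genes were added to the reference, -0.49 (exact p = 0.257) in cortex alone and -0.54 (exact p = 0.143) in thalamus alone. Without any 1 of the 4 ret/wt mice it was -0.56 to -0.46 (exact p = 0.0571), and the genotypes still did not overlap. Vwf was at 0.29 ± 1.36 in ret/wt and 1.53 ± 0.34 in ret/ret (SD, n = 4), a difference of 1.23 (exact permutation p = 0.143). That difference was 1.82 without ret/wt mouse 4 and 1.43 in cortex alone, each with an exact p of 0.0286, but 0.73 without ret/wt mouse 3 (exact p = 0.286) and 1.03 in thalamus alone (exact p = 0.371). Icam2 differed by 0.56 (exact p = 0.2), by 0.91 (exact p = 0.0286) without ret/wt mouse 4 and by 0.28 (exact p = 0.457) without ret/wt mouse 3. Pecam1 differed by 0.02 (exact p = 0.886). Vcam1 differed by -0.62 (exact p = 0.0571), Thbd by -0.74 (exact p = 0.171), Icam1 by -0.54 (exact p = 0.6, and 0.04 without ret/wt mouse 3) and Lrg1 by -0.28 (exact p = 0.486). These p-values are not corrected for the 8 members.

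**Figure D5:**
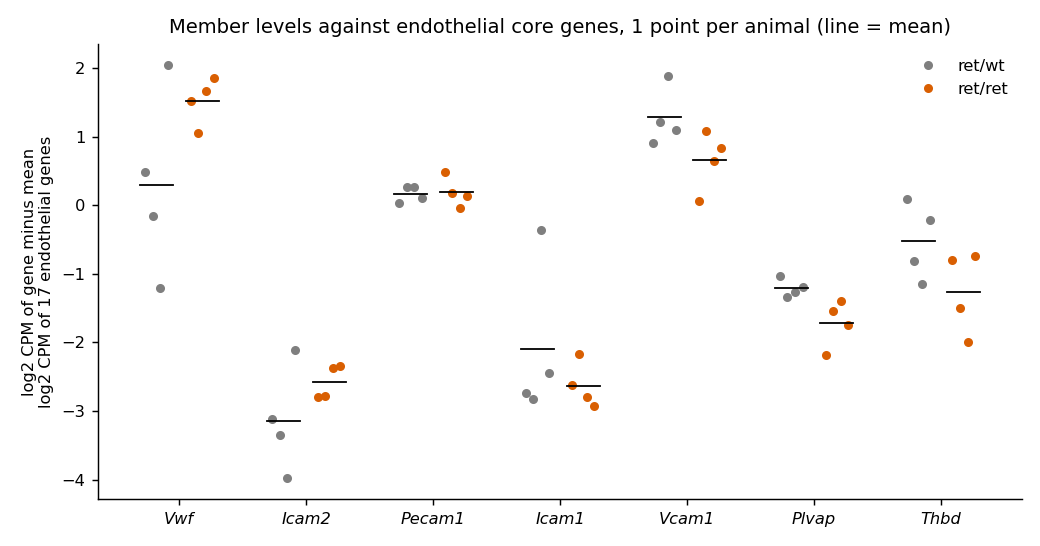
Log2 CPM of 7 members minus the mean log2 CPM of 17 endothelial genes, 1 point per mouse averaged over both regions, 4 mice per genotype, with a line at each mean. Vwf has its ret/wt points spread from -1.20 to 2.05 and its ret/ret points between 1.06 and 1.85, and the Plvap points of ret/ret all lie below those of ret/wt.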

How the data were processed

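The authors deposited 1 table of expected counts per Ensembl gene for all 16 libraries, in which 100.0% of nonzero values are not whole. Per the submitters' processing notes, kallisto 0.44.0 and GRCm38.p6 were used; per the labels' protocols the RNA was polyA-enriched and the libraries stranded. Symbols and coordinates came from GENCODE M21 (GRCm38) for 99.0% of genes. Counts were rounded, filtered with filterByExpr (minimum count 10, minimum total 15), TMM-scaled and tested with edgeR 4.0.16 (quasi-likelihood, Benjamini-Hochberg over all genes, threshold 0.05); DESeq2 1.42.0 and limma 3.58.1 (voom) were alternatives, in R 4.3.3. Each comparison used its own libraries, the interaction all 16, and the comparison by mouse the summed counts of its libraries. Log2 CPM used a prior count of 1, and exact permutation tests enumerated 70 regroupings. All 10 members are named; list genes were named if they passed the adjusted threshold, otherwise from the 4 most abundant of a list, of which 1 is not reported here. For each member with a mean of at least 1 CPM, the 3 most similar genes were ranked by region-centred Pearson correlation among genes with a mean log2 CPM of at least 1. Members and lists were chosen with earlier results of these data known. Regions were paired by the animal identifiers in the labels, and across genotypes equal numbers are different mice. Residual correlations of the libraries of one mouse ran from -0.017 to 0.239. In ret/wt mice 2 and 4 and ret/ret mice 2, 3 and 4, the cortex library correlated more with another mouse's thalamus library (0.094 to 0.154). The pairing therefore rests on the labels. On simulated counts edgeR recovered 67%, 79% and 87% of genes given a log2 difference of 2 in thalamus (14767 genes), cortex (14288 genes) and by mouse (15505 genes), and 19%, 18% and 40% at 1. False calls were 3.96% to 5.22% of edgeR calls and 17.0% to 21.7% of DESeq2 calls there.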

Additional observations from a re-analysis of the deposited data

Results flagged for a closer look

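A library far from the others of its group was found in 3 of the 31 member and group combinations tested, where chance alone gives about 5%. Vwf in ret/wt thalamus replicate 4 was at 226 CPM, with the other 3 libraries at 5.74 to 26.6 CPM. Icam1 in ret/wt cortex replicate 3 was at 13 CPM, with the others at 2.28 to 2.92 CPM. Pecam1 in ret/wt thalamus replicate 4 was at 37.8 CPM, with the others at 22.5 to 23.6 CPM. The Vwf and Pecam1 values come from the same library, in which Icam2, Plvap and Thbd were also the highest of their group, at 5.81, 14.3 and 28.9 CPM.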

How the results depend on the processing

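Of 1020 alternatives computed for 53 member results, 943 kept their direction and their side of the threshold, 66 turned the direction of a difference that had passed no threshold, 7 lost a call and 4 gained one. The threshold was an adjusted p of 0.05 in the fits and an uncorrected exact p of 0.05 relative to the endothelial genes. All lost calls were Plvap in that uncorrected test. Calls were gained by Vwf in cortex with DESeq2, and in the uncorrected test by Vwf in cortex alone and by Vwf and Icam2 without ret/wt mouse 4. The turned directions concern 26 results, and 53 of the 66 came from leaving out 1 library or mouse. With DESeq2 the genes called were 37 in thalamus, 38 in cortex, 2591 between regions in ret/ret, 4 for the interaction and 80 by mouse. With all 16 libraries in the fit they were 3 in thalamus and 7 in cortex. The newer quasi-likelihood method, chosen after seeing the data, called 1 in thalamus. Without the mice with Y-linked reads 1 was called in cortex, 0 by mouse and 2564 between regions in ret/ret. With the replicate block, which across genotypes joins different mice, 0 were called in cortex and 0 by mouse. Leaving out 1 library at a time gave 0 to 2 calls in cortex, 627 to 2007 between regions in ret/ret, 1178 to 1797 in ret/wt, and 0 to 0 in thalamus and for the interaction; leaving out 1 mouse gave 1 to 2 by mouse. Relative to the endothelial genes 1 of 8 members had an exact p under 0.05 (24.3% of all genes had non-overlapping genotypes there), 0 with the wider reference and 0 in thalamus alone; leaving out 1 mouse gave 0 to 2.

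The differences that turned are log2 values. Between genotypes in thalamus, leaving out 1 library gave -0.07 to 2.41 for Vwf, -0.47 to 0.48 for Icam1, -0.27 to 0.15 for Plvap and -0.81 to 0.27 for Thbd. In cortex it gave -0.59 to 0.64 for Icam1, -0.09 to 0.28 for Plvap and -0.28 to 0.16 for Thbd. By mouse it gave -0.47 to 0.59 for Icam1, -0.21 to 0.02 for Vcam1, -0.07 to 0.15 for Plvap and -0.51 to 0.20 for Thbd. Between regions in ret/ret it gave -0.13 to 0.43 for Vwf and -0.36 to 0.62 for Thbd. Between regions in ret/wt it gave -0.31 to 2.15 for Vwf, -0.47 to 1.18 for Icam1, -0.09 to 0.84 for Icam2 and -0.05 to 0.67 for Thbd. The interaction ran from -1.96 to 0.45 for Vwf, -0.84 to 0.82 for Icam1, -0.51 to 0.38 for Icam2, -0.40 to 0.04 for Plvap, -0.55 to 0.16 for Pecam1 and -0.70 to 0.32 for Thbd. Relative to the endothelial genes leaving out 1 mouse gave -0.78 to 0.04 for Icam1 and -0.08 to 0.10 for Pecam1, and thalamus alone gave -0.03 for Pecam1 and 0.07 for Lrg1. Without the mice with Y-linked reads Icam1 was at 0.36 in thalamus, 0.63 in cortex, 0.50 by mouse and -0.27 for the interaction, Plvap at -0.08 in cortex, -0.04 by mouse and 0.04 for the interaction, and Thbd at 0.13 for the interaction. With the replicate block Icam1 was at 0.08 in cortex, 0.03 by mouse and -0.11 for the interaction. The causes were not tested. Selp and Sele reached a test only with no count filter, and depth limits Lrg1 as well.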

Other observations

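Markers of vessel segments were read as lists, and differences between the lists were not tested. Of the 8 capillary genes, 2 had a higher and 6 a lower fitted level in ret/ret cortex (median log2 fold change -0.09), and 4 and 4 did in thalamus (median 0.00). Mfsd2a, the lipid transporter that marks capillaries of the barrier and was named after its values were seen, was at 17.7 ± 2.65 CPM in ret/wt cortex and 10.7 ± 2.92 CPM in ret/ret cortex (SD, n = 4). Of the 9 arterial genes, 7 had a higher fitted level in each region, with medians of 0.34 in cortex and 0.25 in thalamus. The 5 of 6 venous genes tested in cortex had a median of 0.21. The mean log2 CPM of all 6 was 1.36 ± 0.26 in ret/wt cortex (1.13 to 1.72) and 2.37 ± 0.43 in ret/ret cortex (1.99 to 2.94, SD, n = 4). This mean includes Aplnr, too low to be tested there, at 0.114 and 0.916 CPM. It also includes Lcn2, named after its values were seen, at 1.23 ± 2.37 and 1.11 ± 0.544 CPM (SD, n = 4). The summed CPM of the 6 genes overlapped, at 51.4 to 107 in ret/wt cortex and 46.4 to 118 in ret/ret cortex. Ackr1, the chemokine-scavenging receptor of venules, was at 39.5 ± 4.31 and 44.9 ± 21.4 CPM in ret/wt and ret/ret cortex (SD, n = 4). None of these genes passed the adjusted threshold in edgeR. Haemoglobin and other red cell genes, a measure of blood left in the tissue, summed to 2.71 to 22.7 CPM in ret/wt cortex and 5.60 to 49.7 CPM in ret/ret cortex, and to 5.05 to 32.3 and 11.9 to 120 CPM in thalamus.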
